A study of Mus musculus with 4 samples.

Results

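Chromatin accessibility was examined at 10 genes of lateral mesoderm and of the blood and vessel lineages that arise from it: the receptor genes Kdr, Flt1, Tek and Pdgfra, the adhesion gene Cdh5, the ETS factor genes Etv2 and Fli1, and the blood regulator genes Tal1, Lmo2 and Runx1. They were chosen by their function, among 21851 protein-coding genes of the mouse annotation. No rule on their accessibility was used, but earlier results of these data were known. Around each gene, the peaks of 4 ATAC-seq peak lists were collected within 1 kb of a transcription start site (TSS), called the promoter here, and within 100 kb of one. ATAC-seq marks open chromatin by the sites at which the Tn5 transposase can insert. The peaks of the 4 lists merged into 80380 regions, of which 152 had their strongest summit within 100 kb of one of the 10 genes.

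The libraries came from embryoid bodies (EBs), aggregates in which mouse embryonic stem cells (mESCs) differentiate, at day 4 of hanging-drop culture in serum without leukemia inhibitory factor. There were 2 wild-type (WT) libraries and 2 libraries of CTCF-K20R EBs, in which lysine 20 of the insulator protein CTCF had been changed to arginine by CRISPR/Cas9. Both genotypes derived from the E14Tg2A mESC line, which had been grown on inactivated mouse embryo fibroblasts before aggregation. EBs are mixtures of cell types, so fewer cells of a type and less open chromatin per cell cannot be told apart in these libraries, and the number of K20R clones behind the 2 libraries is not given in the sources used here.

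Lateral mesoderm is the layer of the early embryo that gives rise to heart, vessels and blood. Kdr, the main signalling receptor for vascular endothelial growth factor (VEGF), and Pdgfra, a platelet-derived growth factor receptor, are the surface proteins by which mesoderm progenitors are commonly sorted. Etv2, an ETS factor expressed for a short time, starts the endothelial and blood programme in KDR-positive cells. Tal1 (a basic helix-loop-helix factor that binds E-boxes), Lmo2 (an adaptor that joins TAL1 to GATA factors) and Fli1 then act together in blood and vessel progenitors, and Runx1 is needed for definitive blood cells to emerge from endothelium.

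The data are best seen first in the sequences that carry them. The first set below holds 151 bases around the strongest summit of 6 regions with a peak in both WT lists and in neither K20R list, called WT-restricted. There were 20 such regions among the 152 (13.2%, against 10.4% of all regions), and those shown were the 6 with the highest mean rank in WT outside exons. Coordinates are those of mm10, and capitals mark the letters of the searched motifs on either strand: AGATAA (bound by GATA factors), AGGAAG (ETS factors), CAGATG (an E-box), GTAAACA (forkhead factors) and TCACACCT (T-box factors).
Runx1, 64.3 kb downstream, chr16:92631782-92631932, + strand: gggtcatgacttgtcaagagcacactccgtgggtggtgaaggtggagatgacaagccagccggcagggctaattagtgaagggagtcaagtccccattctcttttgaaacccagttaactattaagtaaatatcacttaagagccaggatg
Runx1, 2.2 kb upstream, chr16:92828301-92828451, + strand: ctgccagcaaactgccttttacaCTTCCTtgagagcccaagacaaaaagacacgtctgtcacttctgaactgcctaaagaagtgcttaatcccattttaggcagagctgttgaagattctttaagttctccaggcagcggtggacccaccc
Kdr, 8.4 kb downstream, chr5:75969940-75970090, + strand: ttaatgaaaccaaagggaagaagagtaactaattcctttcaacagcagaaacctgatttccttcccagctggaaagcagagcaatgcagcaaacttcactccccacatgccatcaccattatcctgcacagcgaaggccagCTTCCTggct
Runx1, 85.4 kb downstream, chr16:92610639-92610789, + strand: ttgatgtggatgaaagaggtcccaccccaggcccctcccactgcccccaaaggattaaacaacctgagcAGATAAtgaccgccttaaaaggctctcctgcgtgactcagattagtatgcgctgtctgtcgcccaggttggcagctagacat
Etv2, 20.5 kb downstream, chr7:30615235-30615385, + strand: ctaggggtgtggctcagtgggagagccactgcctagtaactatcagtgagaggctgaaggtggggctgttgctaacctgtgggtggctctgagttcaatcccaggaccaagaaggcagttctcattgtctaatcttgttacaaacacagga
Fli1, 52.8 kb upstream, chr9:32594325-32594475, + strand: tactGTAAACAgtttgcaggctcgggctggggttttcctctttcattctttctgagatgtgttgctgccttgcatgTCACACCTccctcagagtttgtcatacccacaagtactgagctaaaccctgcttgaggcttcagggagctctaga

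The second set holds 6 regions with a peak in all 4 lists whose rank was lower in both K20R lists. They lay outside promoters and were chosen after their values were seen, from 8 that were lower by 20 points or more. They are not the 6 with the widest differences. The Cdh5 region 32.8 kb upstream (−35.6 points, K20R minus WT), with 0 motif matches, is not shown, while Flt1 28.7 kb downstream (−26.4 points) is.
Pdgfra, 2.1 kb upstream, chr5:75150151-75150301, + strand: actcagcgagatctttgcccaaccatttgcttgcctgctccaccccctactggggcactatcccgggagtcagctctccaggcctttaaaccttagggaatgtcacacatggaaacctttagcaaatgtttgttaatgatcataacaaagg
Runx1, 18.4 kb upstream, chr16:92715639-92715789, + strand: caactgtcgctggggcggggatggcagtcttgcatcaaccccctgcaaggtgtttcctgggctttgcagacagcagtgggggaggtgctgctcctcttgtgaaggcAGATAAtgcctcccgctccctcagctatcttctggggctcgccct
Flt1, 27.2 kb upstream, chr5:147753137-147753287, + strand: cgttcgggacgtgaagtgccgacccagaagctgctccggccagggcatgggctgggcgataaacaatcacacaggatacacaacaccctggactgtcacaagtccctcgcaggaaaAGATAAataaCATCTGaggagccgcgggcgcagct
Flt1, 28.7 kb downstream, chr5:147697239-147697389, + strand: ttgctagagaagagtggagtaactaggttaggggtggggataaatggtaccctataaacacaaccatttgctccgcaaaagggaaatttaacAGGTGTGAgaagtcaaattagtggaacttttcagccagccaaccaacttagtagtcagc
Cdh5, 40.2 kb upstream, chr8:104061367-104061517, + strand: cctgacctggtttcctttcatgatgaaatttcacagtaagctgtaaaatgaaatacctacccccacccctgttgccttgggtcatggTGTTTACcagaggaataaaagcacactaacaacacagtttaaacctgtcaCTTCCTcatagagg
Cdh5, 2.5 kb upstream, chr8:104099013-104099163, + strand: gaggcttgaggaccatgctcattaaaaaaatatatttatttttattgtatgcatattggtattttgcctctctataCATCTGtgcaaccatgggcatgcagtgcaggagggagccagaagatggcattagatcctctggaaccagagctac

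The third set holds the 150 bases upstream of the TSS nearest to the promoter summit, written 5′ to 3′ along the gene, for the 3 genes whose promoter ranked lower in both K20R lists.
Kdr promoter, chr5:75978459-75978608, - strand: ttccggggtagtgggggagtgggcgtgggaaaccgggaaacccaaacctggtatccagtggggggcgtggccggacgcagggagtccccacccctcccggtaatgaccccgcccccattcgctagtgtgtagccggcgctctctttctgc
Lmo2 promoter, chr2:103969979-103970128, + strand: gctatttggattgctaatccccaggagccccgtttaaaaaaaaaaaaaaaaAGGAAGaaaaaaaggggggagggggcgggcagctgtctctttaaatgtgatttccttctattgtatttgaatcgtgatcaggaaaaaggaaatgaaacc
Runx1 promoter, chr16:92697329-92697478, - strand: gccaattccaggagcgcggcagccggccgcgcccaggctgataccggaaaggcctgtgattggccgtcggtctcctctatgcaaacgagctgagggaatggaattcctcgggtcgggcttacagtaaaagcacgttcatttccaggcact

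A letter match describes the sequence and is not a measured binding site. In a window of 150 bases on either side of the summit, AGATAA or its reverse complement was present in 6 of the 20 WT-restricted regions (30%), against 20.1% of all 8341 WT-restricted regions of the genome and 12% of all 80380 regions. AGGAAG was present in 11 of the 20 (55%), against 41.2% and 37.6%. CAGATG was present in 5 of the 20 (25%), against 26.9% and 21.6%. GTAAACA was found in 1 of the 20 (5%, against 8.81% and 4.69%) and TCACACCT in 1 of the 20 (5%, against 3.58% and 1.73%). Both of these matches stood in the Fli1 region 52.8 kb upstream. The region inside Kdr held the GATA, ETS and E-box letters together, and the Runx1 regions 64.3 kb and 85.4 kb downstream held both the GATA and the ETS letters. The CTCF consensus was found in 0 of the 20, against 2.76% of all WT-restricted regions and 6.22% of all regions. Among the 49 regions of the 10 genes that had a peak in all 4 lists and lay outside promoters, 5 (10.2%) held it, against 10.8% of such regions in the genome.

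The lists differed in length, which bears on every count below. There were 59783 and 66703 peaks in WT against 51823 and 55832 in K20R, covering 44.8, 51.2, 39.8 and 46.7 Mb. Each peak was ranked within its own list by its −log10 p-value and given a percentile, with 100 the strongest peak. This scale does not remove the difference in length. Among all promoters with a peak in every list, both K20R percentiles lay under both WT percentiles at 31.8% and above them at 15.9%. With lists cut to equal length these shares were 18.5% and 29.8%. The numbers in the peak names show that each list holds between 50.5% and 60.8% of the peaks once numbered, so a peak not listed may still have been called. With 2 libraries against 2, the exact two-sided permutation test cannot give a p below 0.333.

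More peaks lay within 100 kb of the 10 genes in WT than in K20R EBs. The WT libraries held 123 and 133 such peaks and the K20R libraries 96 and 102, so the genotypes did not overlap (128 ± 7.07 against 99.0 ± 4.24, mean ± SD, n = 2 each). The log2 ratio of K20R to WT was −0.37 (exact permutation test, p = 0.333, the smallest value possible). As a share of the whole list, the peaks amounted to 0.206% and 0.199% in WT and 0.185% and 0.183% in K20R, which again did not overlap. With lists cut to equal length WT held 102 and 103 of them against 96 and 95 for K20R, and the log2 ratio shrank to −0.10 (exact permutation test, p = 0.333). Among peaks of −log10 q of at least 5 the genotypes overlapped (77 and 103 against 69 and 83, log2 ratio −0.24, exact permutation test, p = 0.667), as they did at 10 (56 and 82 against 51 and 72, log2 ratio −0.17, p = 0.667). The length covered by these peaks was 89.2 and 105 kb in WT and 76.0 and 90.5 kb in K20R, and here the genotypes overlapped (exact permutation test, p = 0.667).

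The difference in number was widest at 3 genes. Fli1 had 19 and 19 peaks in WT and 10 and 9 in K20R. Runx1 had 13 and 15 in WT compared with 6 and 8 in K20R, and Kdr had 8 and 8 in WT compared with 4 and 4 in K20R. The log2 ratio of K20R to WT was −1 for each of these 3 genes (exact permutation test, p = 0.333 each). Lmo2 (13 and 16 against 11 and 11), Pdgfra (16 and 15 against 13 and 12) and Tal1 (15 and 17 against 13 and 14) also had more peaks in both WT lists. For Etv2 (16 and 15 against 15 and 17), Cdh5 (10 and 16 against 11 and 14), Tek (3 and 5 against 5 and 4) and Flt1 (10 and 7 against 8 and 9) the genotypes overlapped. Both WT lists were longer, and the share of all genes with such differences was not counted. Nothing particular to these genes is therefore read from the counts per gene.

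**Figure D1:**
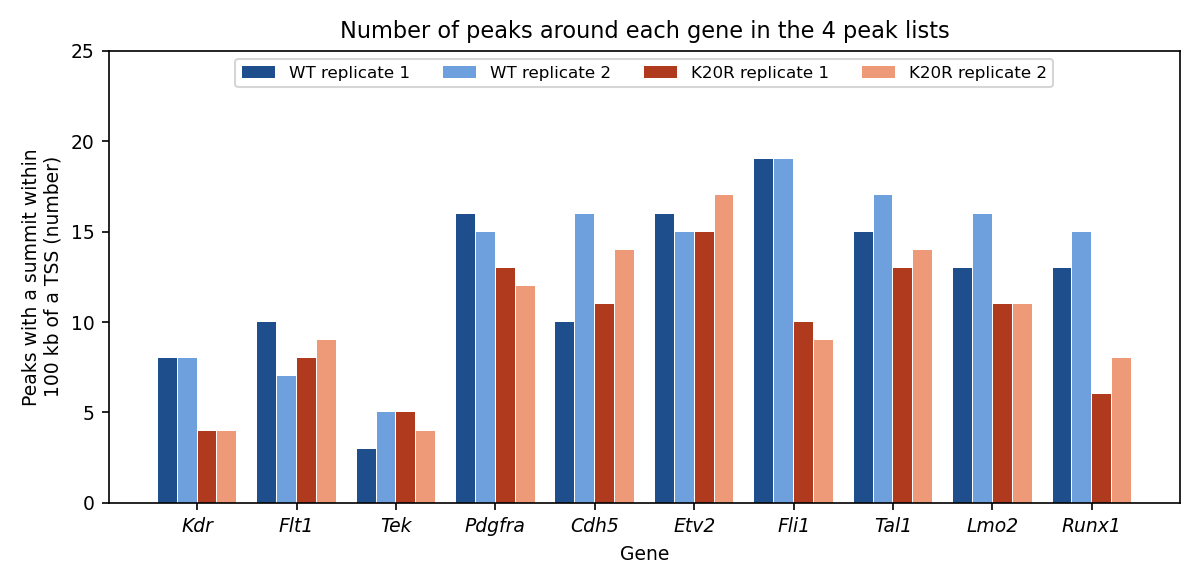
Number of peaks with a summit within 100 kb of a TSS of each gene, 1 bar per library (2 WT in blue, 2 K20R in red). Fli1, Runx1 and Kdr show the widest gaps, with 19 and 19 peaks in WT against 10 and 9 in K20R at Fli1, while the bars of Etv2, Cdh5, Tek and Flt1 overlap. Both WT lists are longer, and the share of all genes with such gaps was not counted.

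The 152 regions comprised 73 with a peak in all 4 lists (48.0%, against 47.9% of all regions), 20 WT-restricted regions, 1 K20R-restricted region and 58 with other combinations. The WT-restricted share was 13.2% of the 152 against 10.4% of all regions, and the K20R-restricted share was 0.658% against 3.10%. At 4 of the 20 WT-restricted regions no peak number was missing in either K20R list. Outside the promoters of any protein-coding gene, 20 of 123 regions were WT-restricted (16.3%, against 12.4%) and 1 of 123 was K20R-restricted (0.813%, against 3.60%). When each list was cut to the same number of strongest peaks, 13 of 129 regions were WT-restricted (10.1%, against 8.04% in the genome) and 8 were K20R-restricted (6.20%, against 6.29%). With peaks of −log10 q of at least 5, 14 of 113 were WT-restricted (12.4%, against 9.32%) and 6 were K20R-restricted (5.31%, against 3.08%), so the low K20R-restricted share did not hold there. With peaks of −log10 q of at least 10, the counts were 9 (10.2%, against 6.92%) and 2 (2.27%, against 2.60%) of 88. The excess of WT-restricted over K20R-restricted regions was therefore smaller when list length was made equal. A count that asks for fewer lists is larger by construction. Without WT replicate 1, 36 of 144 regions were WT-restricted (against 20.8% of all regions) and 3 were K20R-restricted (2.08%, against 4.44%). The counts were 31 and 8 without WT replicate 2 (22.1% and 5.71%, against 17.3% and 7.45%), 22 and 8 without K20R replicate 1 (14.8% and 5.37%, against 12.6% and 8.05%), and 29 and 6 without K20R replicate 2 (19.5% and 4.03%, against 15.8% and 7.09%).

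**Figure D2:**
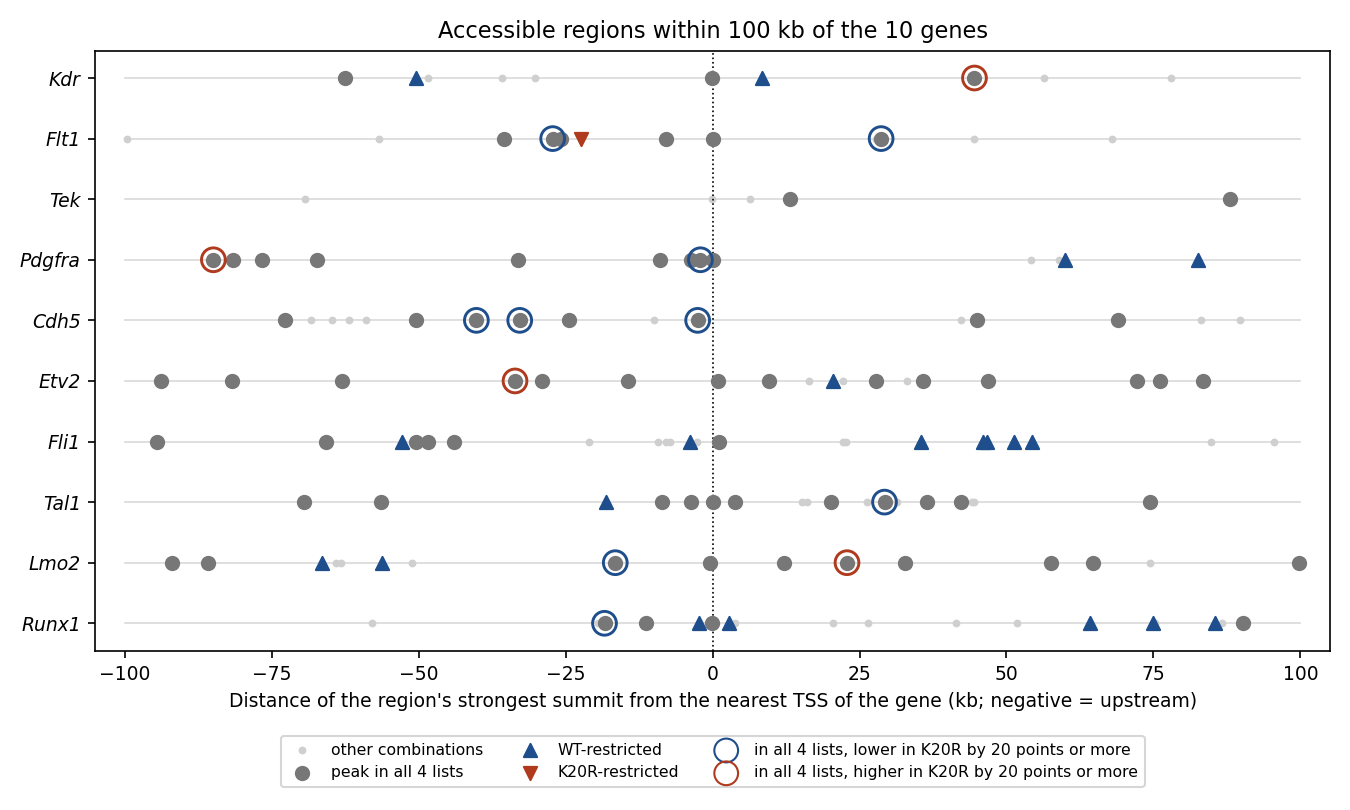
Each of the 152 regions, placed by the distance of its strongest summit from the nearest TSS of its gene in kb (negative upstream, dotted line at the TSS), 1 row per gene. Triangles mark the 20 WT-restricted regions and the 1 K20R-restricted region, dark points the 73 regions with a peak in all 4 lists, pale points other combinations, and rings the regions in all 4 lists whose mean percentile differed by 20 points or more with no overlap. WT-restricted regions are most numerous at Fli1 (7 of 22, 31.8%) and Runx1 (5 of 19, 26.3%), against 10.4% of all regions. The Runx1 window is wider than that of a gene with 1 TSS, since its TSSs run from 92696125 to 92826149.

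Across the 10 promoters, 6 genes had a peak in all 4 lists (60%, against 63.8% of protein-coding genes). Of these 6, Kdr, Lmo2 and Runx1 were lower in K20R, meaning that both K20R percentiles lay under both WT percentiles, Pdgfra was higher, and Flt1 and Tal1 overlapped. Among all 13951 such genes, 31.8% were lower and 15.9% higher in K20R, and with 6 genes nothing particular to them is read from these counts. Ranked anew among the genes with a promoter peak in all 4 lists, 2 of the 6 were lower and 1 higher, against 23.0% and 23.9% of all genes. The median difference was −3.46 points for the 6 promoters and −0.776 for all. Without K20R replicate 2, 5 of 7 were lower (background 49.3%), and 2 of 7 were higher without WT replicate 1 (background 25.5%) and without K20R replicate 1 (background 28.4%).

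Among the 73 regions in all 4 lists, 22 were lower in K20R (30.1%, against 34.8% of all such regions), 14 were higher (19.2%, against 18.6%) and 37 overlapped. Ranked anew, 17 were lower and 25 higher (background 25.5% and 29.2%), and with lists cut to equal length 14 of 69 were lower and 24 higher (background 22.6% and 33.1%). Whether more regions were lower or higher therefore depended on the scale. Of the 49 outside promoters, 8 were lower by 20 points or more with no overlap. These 8 (background 14.3%) were 3 at Cdh5, 2 at Flt1 and 1 each at Pdgfra, Lmo2 and Runx1, and 4 of the 49 were higher by as much (background 5.60%), 1 each at Kdr, Pdgfra, Etv2 and Lmo2. In all, 15 of the 49 were lower and 10 higher, against 36.4% and 20.0% of such regions in the genome. Neither share stood far from its background. Without WT replicate 1, 37 regions were lower and 22 higher (46.2% and 27.5%, against 50.9% and 27.6% of all such regions). The counts were 28 and 32 without WT replicate 2 (36.8% and 42.1%, against 42.8% and 35.1%), 35 and 24 without K20R replicate 1 (42.7% and 29.3%, against 44.5% and 30.0%), and 36 and 22 without K20R replicate 2 (46.8% and 28.6%, against 51.2% and 25.4%).

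**Figure D3:**
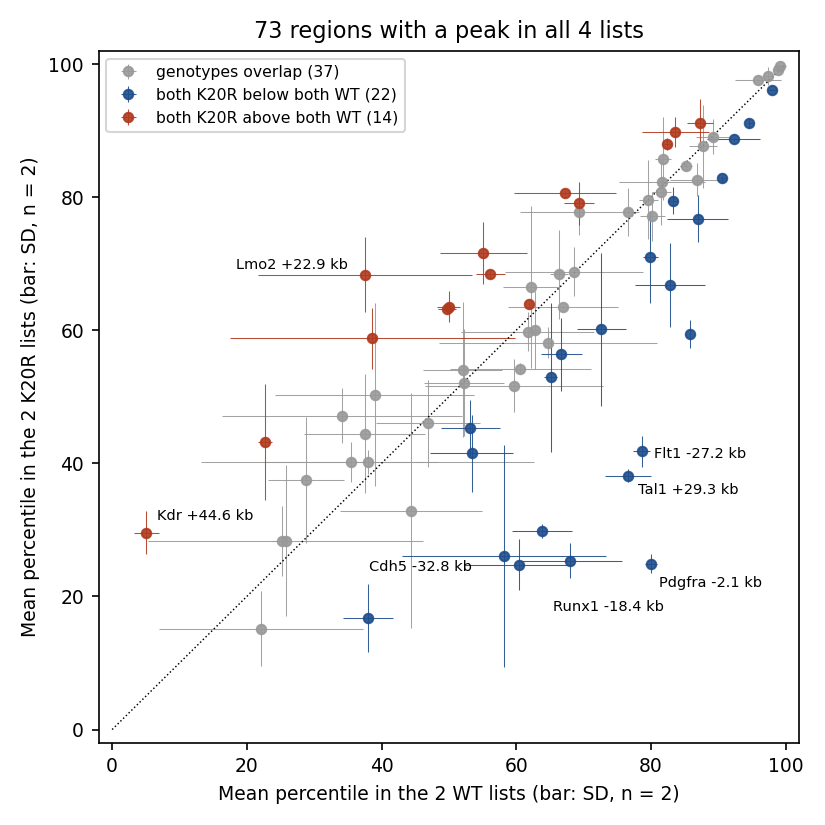
Mean percentile of each of the 73 regions in the 2 K20R lists against that in the 2 WT lists, with bars for the SD (n = 2) and a dotted line of equality. Blue points (22) have both K20R values below both WT values, red points (14) above, and grey points (37) overlap. The Pdgfra region 2.1 kb upstream lies farthest below the line, at 24.9 in K20R against 80.0 in WT.

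Kdr lies on chromosome 5 (75932827 to 75978458, minus strand). Its promoter peak ranked at percentiles 83.8 and 82.8 in WT compared with 80.9 and 78.0 in K20R. The K20R pair lay under the WT pair, by 3.83 points in the mean, but the genotypes overlapped when promoters were ranked anew. Beyond the promoter, a peak in intron 3, 8.4 kb downstream of the TSS, stood at percentiles 50.7 and 60.4 in WT (5.58-fold and 8.89-fold enrichment over the local background) and was in neither K20R list. In WT it was the strongest region within 100 kb of Kdr outside its promoter. Between its neighbouring peaks, 1 peak number was missing in each K20R list, so a peak may have been called there. A second WT-restricted region lay 50.5 kb upstream, at percentiles 29.5 and 37.2, and here no peak number was missing between the neighbouring peaks of either K20R list. A further region 48.4 kb upstream was listed in both WT libraries (41.2 and 44.0) and in K20R replicate 2 (16.2). In the other direction, a weak region in the last part of the gene, 44.6 kb downstream of the TSS, stood at 6.36 and 3.83 in WT, below the K20R values of 31.9 and 27.3. The strongest Kdr region in all 4 lists outside the promoter, 62.5 kb upstream, overlapped between genotypes (11.4 and 32.8 against 11.2 and 19.2).

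Flt1, a VEGF receptor that binds the ligand tightly and limits its signal, lies on the same chromosome (147561604 to 147726011, minus strand). Its promoter overlapped between genotypes, at 81.5 and 78.9 in WT compared with 79.7 and 74.5 in K20R. Its distal regions differed more. A region in intron 3, 28.7 kb downstream of the TSS, stood at 85.9 and 85.7 in WT, above the promoter itself, and at 57.9 and 60.9 in K20R. A region 27.2 kb upstream stood at 79.5 and 77.8 in WT compared with 40.2 and 43.5 in K20R, and its neighbour 25.9 kb upstream at 64.5 and 68.9 against 52.5 and 60.3. These 3 regions were lower in both K20R lists, also when regions were ranked anew. The region 35.5 kb upstream, on the far side of them, overlapped (76.2 and 77.1 against 75.3 and 80.4), but was higher in K20R when ranked anew and relative to its neighbourhood, the regions in all 4 lists within 2 Mb. Among the 152 regions, the one that was K20R-restricted lay 22.3 kb upstream of Flt1, in an exon of the non-coding gene Gm43156, and was weak (31.2 and 11.9 in K20R).

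Tek, the receptor for angiopoietins on endothelium, lies on chromosome 4 (94739289 to 94874976, plus strand) and was the gene with the fewest regions, 5 in all. Its promoter peak was not listed in WT replicate 1, stood at 21.0 in WT replicate 2, and stood at 56.5 and 39.2 in the K20R libraries. The 3 listed values had both K20R libraries above WT. A peak within the gene, 6.4 kb downstream, was listed in both WT libraries (27.8 and 33.5) and in K20R replicate 1 (11.2). Its strongest region in all 4 lists, 13.1 kb downstream within the gene, overlapped (21.6 and 46.7 against 50.1 and 44.2) but was higher in K20R when ranked anew.

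Pdgfra lies on chromosome 5 (75152292 to 75198215, plus strand) and was the gene whose promoter ranked higher in K20R, at 82.7 and 82.1 in WT against 87.3 and 88.6 in K20R. The enrichment at the summit was 5.33-fold and 5.80-fold in WT compared with 6.66-fold and 7.24-fold in K20R, and the order also held with promoters ranked anew. Near to it, the region 2.1 kb upstream of the first TSS differed more than any other of the 73 regions in all 4 lists, with 79.3 and 80.6 in WT and far lower K20R values of 25.9 and 24.0. Its enrichment was 4.62-fold and 5.05-fold in WT compared with 2.48-fold and 2.48-fold in K20R. The promoter peak, with its summit at 75155929, lay at the last of the 4 Pdgfra TSSs (75155899). The summit of the region upstream of the first TSS was at 75150226. A promoter and a region within a few kilobases of it thus differed in opposite directions. The next region out, 3.6 kb upstream, overlapped (62.5 and 63.1 against 64.2 and 55.8). Farther upstream, 3 regions were higher in both K20R lists: at 33.1 kb (50.7 and 48.7 against 63.5 and 62.8), at 67.3 kb (54.6 and 57.7 against 68.1 and 68.8) and at 84.9 kb (23.6 and 53.6 against 55.5 and 62.0). The 2 WT-restricted regions of Pdgfra, 60.0 kb and 82.6 kb downstream, were weak, at 6.36 in WT replicate 1 each and 21.0 and 35.3 in WT replicate 2.

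Cdh5, which encodes the cadherin of endothelial junctions, lies on chromosome 8 (104101625 to 104144511, plus strand) and had no promoter peak in any list. Its nearest region in all 4 lists lay 2.5 kb upstream and stood at 47.4 and 68.9 in WT compared with 14.3 and 37.9 in K20R. Regions 32.8 kb upstream (54.8 and 66.1 against 27.5 and 22.1) and 40.2 kb upstream (60.7 and 67.0 against 30.5 and 29.1) were lower in K20R too. These differences ran against the neighbourhood, since the median of the regions in all 4 lists within 2 Mb of Cdh5, but over 100 kb from it, was 7.47 points higher in K20R. The strongest region of the Cdh5 window outside 1 kb, 69.0 kb downstream at the promoter of Bean1, was higher in K20R (80.1 and 87.2 against 91.4 and 88.2), but overlapped relative to the neighbourhood. So did the region 72.8 kb upstream (67.7 and 70.9 against 76.8 and 81.4). The region 50.4 kb upstream stood at 61.9 and 61.9 in WT compared with 64.1 and 63.7 in K20R, and relative to the neighbourhood it was lower in K20R. No WT-restricted region lay within 100 kb of Cdh5.

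**Figure D4:**
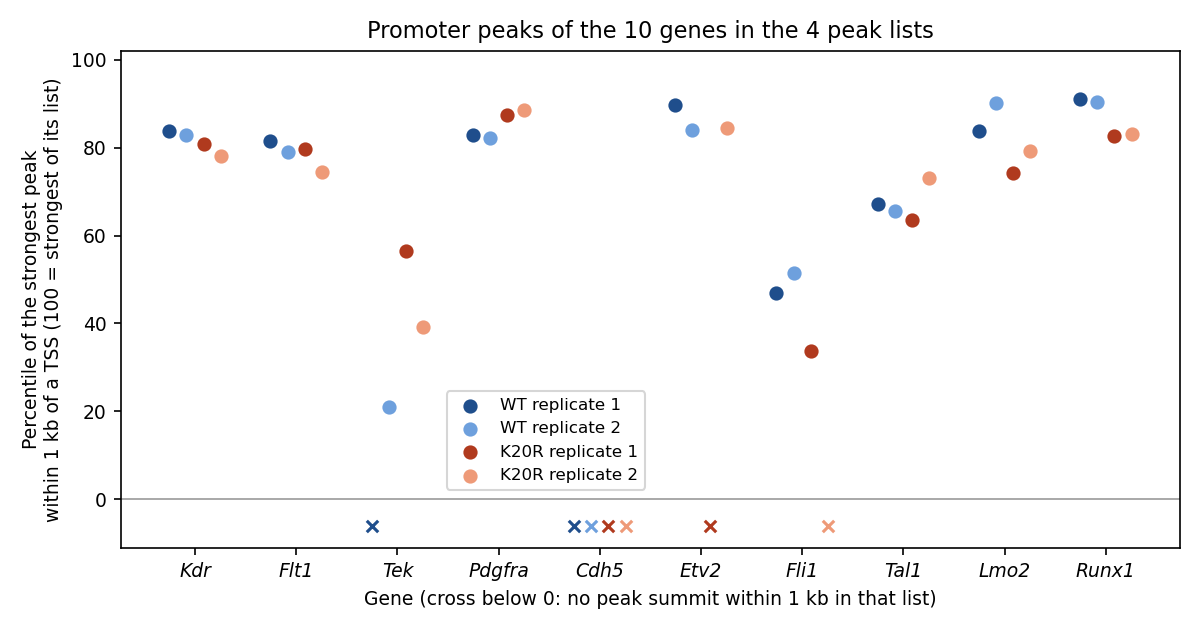
Percentile of the strongest promoter peak of each gene in each of the 4 lists (100 is the strongest peak of a list), with a cross where a list has no summit within 1 kb of a TSS. Kdr, Lmo2 and Runx1 lie lower and Pdgfra higher in both K20R libraries (Pdgfra 82.7 and 82.1 against 87.3 and 88.6), Cdh5 has no promoter peak, and Tek, Etv2 and Fli1 each lack one in 1 library.

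Etv2 lies in a gene-dense stretch of chromosome 7 (30633616 to 30635852, minus strand), and 10 of its 18 regions lay in promoters of other genes. Its own peak had its summit close to 1 kb downstream of the TSS. It stood at 89.8 and 84.0 in WT and 84.4 in K20R replicate 2, while the summit in K20R replicate 1 lay 1043 bases from the TSS, just outside the 1 kb window. Counted by the region it belongs to, that peak stood at 80.9, and the genotypes overlapped. Of the regions around it, 1 was WT-restricted, 20.5 kb downstream (53.9 and 52.9). The regions 9.7 kb downstream, at the Cox6b1 promoter (70.0 and 75.3 against 52.0 and 68.3) and 27.8 kb downstream (65.8 and 64.4 against 45.0 and 60.8) were lower in both K20R lists, and both overlapped relative to the neighbourhood, whose median differed by −4.47 points (K20R minus WT). A region 33.6 kb upstream was higher (23.4 and 22.0 against 49.4 and 37.0). The strongest region of the window outside 1 kb, 81.7 kb upstream within Atp4a, was near the top of every list (98.4, 99.3, 98.9 and 99.2).

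Fli1, on chromosome 9 (32422204 to 32542861, minus strand), had the largest number of WT-restricted regions, 7 of its 22 (31.8%, against 12.4% of all regions outside promoters, where all 22 lie). Of these, 5 lay in intron 1, between 35.4 kb and 54.3 kb downstream of the TSS. The strongest of the 5 was the one at 35.4 kb, with 21.6 in WT replicate 1 and 60.4 in WT replicate 2. The others were weaker: 16.6 and 2.94 at 46.0 kb, 9.03 and 37.1 at 46.6 kb, 18.4 and 8.25 at 51.4 kb, and 30.6 and 17.5 at 54.3 kb. All 5 lay between the same pair of listed peaks in K20R replicate 2, where 4 peak numbers were missing, and none was missing there in K20R replicate 1. The other 2 lay upstream, at 52.8 kb (43.0 and 43.9) and at 3.8 kb (4.86 and 2.22), with no number missing in either K20R list. The promoter itself differed less. A peak with its summit within 1 kb stood at 47.0 and 51.6 in WT and 33.9 in K20R replicate 1 and was not listed in K20R replicate 2, while the main peak of the same region, 1.1 kb into the gene, overlapped (72.8 and 61.2 against 63.2 and 63.7). Far upstream, the regions at 65.8 kb (79.2 and 86.5 against 62.3 and 71.2) and 94.5 kb (80.7 and 79.1 against 66.1 and 75.8) were lower in K20R, the latter with overlap when ranked anew, and the one at 50.4 kb was higher (48.8 and 51.1 against 65.2 and 61.9).

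**Figure D5:**
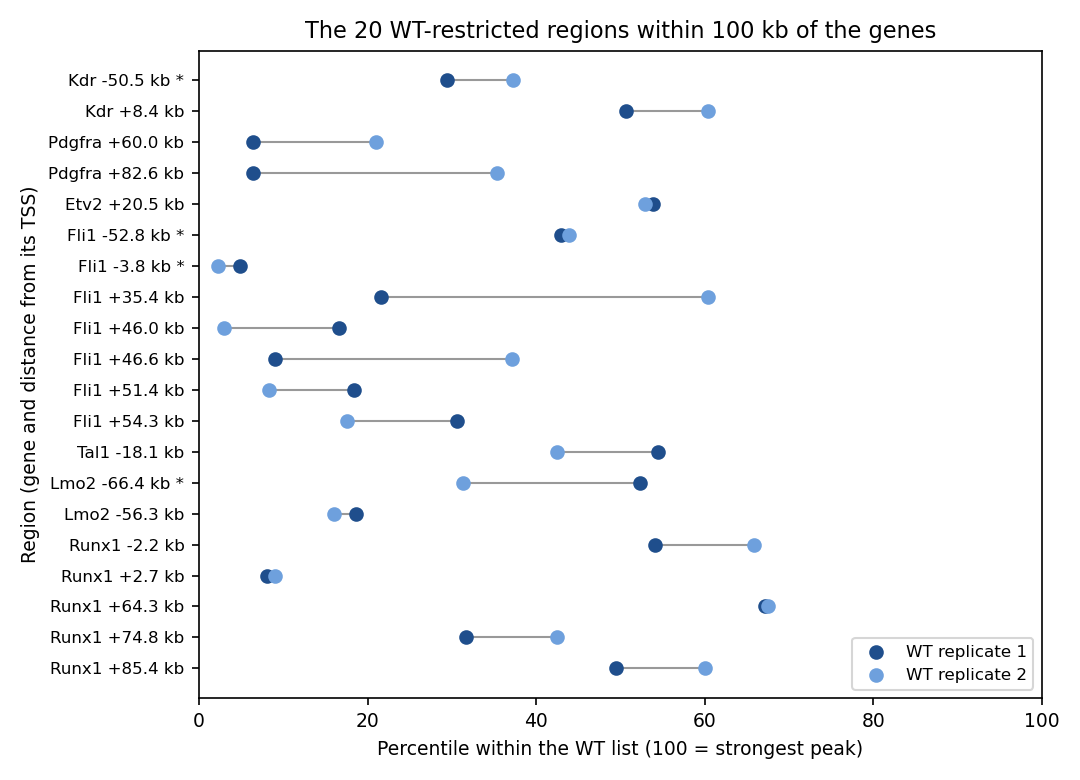
Percentiles of the 20 WT-restricted regions in the 2 WT lists, joined by a line, 1 row per region named by gene and distance from the TSS. A star marks the 4 regions for which no peak number was missing in either K20R list. The Runx1 region 64.3 kb downstream is the strongest (67.2 and 67.5), and replicates differ most at the Fli1 region 35.4 kb downstream (21.6 and 60.4).

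Tal1 lies on chromosome 4 (115056426 to 115071755, plus strand). Its promoter overlapped between genotypes, with 67.3 and 65.5 in WT compared with 63.6 and 73.2 in K20R, and so did its region 3.8 kb downstream (59.3 and 65.2 against 57.9 and 75.1). Ranked anew, the latter was higher in K20R, and 5 of the 11 Tal1 regions in all 4 lists were higher and 2 lower. Among all such regions, 29.2% were higher and 25.5% lower when ranked anew. The region 3.7 kb upstream was lower in both K20R lists (49.0 and 57.8 against 45.6 and 37.4) but overlapped when ranked anew. The widest difference in the window lay 29.3 kb downstream, at the promoter of the neighbouring gene Pdzk1ip1, which stood at 74.2 and 79.0 in WT, above the 37.5 and 38.8 of K20R. One region was WT-restricted, 18.1 kb upstream within an exon of the neighbouring gene Stil (54.4 and 42.5). The strongest region of the window outside 1 kb, 56.3 kb upstream at the Stil promoter, overlapped (98.5 and 99.8 against 99.8 and 99.6).

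Lmo2 lies on chromosome 2 (103957986 to 103981878, plus strand). Its promoter peak stood at 83.8 and 90.1 in WT compared with 74.3 and 79.3 in K20R, with means of 87.0 ± 4.51 against 76.8 ± 3.51 (SD, n = 2 each). The order also held with promoters ranked anew. The surroundings differed the same way: the median of the regions within 2 Mb, but over 100 kb away, differed by −8.33 points (K20R minus WT), and relative to that median the promoter overlapped. A region 16.6 kb upstream was lower in K20R (40.6 and 35.3 against 20.4 and 13.2), also relative to the neighbourhood. Against these, the region 22.9 kb downstream of the last TSS was the one of the 73 most in favour of K20R, with 64.4 and 72.3 there and 26.3 and 48.7 in WT. The WT-restricted regions of Lmo2 lay 66.4 kb upstream (52.3 and 31.3) and 56.3 kb upstream (18.6 and 16.0). The strongest region outside 1 kb, at the Fbxo3 promoter 57.6 kb downstream, overlapped (77.1 and 86.2 against 82.5 and 81.9).

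Runx1, the longest of the 10 genes, lies on chromosome 16 (92601466 to 92826149, minus strand) and has a distal and a proximal promoter. The promoter peak lay at the proximal one, and no list had a peak within 1 kb of the distal one. The proximal promoter stood at 90.9 and 90.3 in WT compared with 82.6 and 83.0 in K20R, a gap far wider than the spread between replicates (90.6 ± 0.405 against 82.8 ± 0.342, SD, n = 2 each). It was lower also when ranked anew and relative to its neighbourhood. Around the distal promoter, 2 regions were WT-restricted, 2.2 kb upstream (54.2 and 65.9) and 2.7 kb downstream (8.06 and 8.97). Within the 3′ part of the gene, 3 more intronic regions were WT-restricted: 64.3 kb downstream of a TSS (67.2 and 67.5, the strongest of the 20), 74.8 kb (31.7 and 42.5) and 85.4 kb (49.5 and 60.0). These 3 lay between the same pair of listed peaks in K20R replicate 1, where 2 peak numbers were missing. The 2 around the distal promoter shared another such pair, where 1 was missing, so peaks may have been called. In K20R replicate 2 none was missing at any of these regions. That list did hold a very weak peak (1.52) beside the region at 74.8 kb. The peak ended at 92620839 and the region starts at 92620910, so they share no base and were not merged. Between the promoters, the region 18.4 kb upstream of the proximal one was lower in K20R (62.4 and 73.5 against 23.5 and 27.3), and so was the region 11.3 kb upstream (50.1 and 56.3 against 42.3 and 48.3). One region differed the other way, in an exon 90.3 kb downstream (61.9 and 72.6 against 80.8 and 80.3). Of the 4 Runx1 regions in all 4 lists, 3 were lower and 1 was higher in K20R, against 34.8% and 18.6% of all such regions. With 4 regions, nothing particular to Runx1 is read from this count.

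Other genes of the same lineages were counted by the same rule at their promoters, to be read against the 31.8% lower and 15.9% higher of all promoters, or 23.0% and 23.9% ranked anew. Of 18 blood genes, 13 had a promoter peak in all 4 lists, 7 lower in K20R, 2 higher and 4 overlapping, and 6 lower and 3 higher when ranked anew. Lower were Mecom, a regulator of blood stem cells (85.0 and 88.3 against 64.7 and 77.8), Epor, the erythropoietin receptor (83.2 and 88.5 against 75.3 and 72.9), and Gata2, the GATA factor of early blood progenitors (70.0 and 68.3 against 59.9 and 66.0). Tcf3, which encodes the partner of TAL1 on E-boxes, was higher (85.7 and 83.6 against 91.1 and 92.0). Of 18 lateral mesoderm genes, 16 had one, 6 lower, none higher (0) and 10 overlapping, and ranked anew 5 were lower and again 0 higher. The widest differences there were at Gata6 (83.5 and 88.2 against 56.5 and 66.0) and Gata4 (80.2 and 71.1 against 52.1 and 58.9), GATA factors of heart and endoderm. The 6 of 16 lower here were near the share of all promoters. Of 22 vascular endothelial genes, 15 had one, 3 lower, 3 higher and 9 overlapping, or 2 lower and 7 higher when ranked anew. A further 4 had a promoter peak in some lists, in each case only in K20R. Plvap (38.9 and 26.0) and Nos3 (32.7 and 12.2) had it in both K20R lists. Sox18 (55.2) and Pecam1 (5.51) had it in K20R replicate 2 alone. The other way, Meis1 of the blood list and Hand2 of the lateral mesoderm list had it in WT replicate 2 alone. The share of all genes with such patterns was not counted. Cd34, a surface protein of endothelium and blood progenitors, was higher (71.9 and 78.5 against 90.9 and 86.6), and Sox7, a SOX factor of early endothelium, was lower (67.8 and 69.6 against 41.7 and 41.1).

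Promoters of germ layer markers were counted against the same shares of all promoters. The 4 mesoderm markers had promoter peaks in every list: T (83.1 and 82.8 against 66.7 and 65.6) and Mixl1 (83.0 and 82.8 against 77.8 and 79.7) were lower, and Eomes (72.8 and 65.8 against 75.5 and 74.1) and Mesp1 (43.5 and 43.4 against 67.3 and 72.4) higher in K20R. Of the 4 endoderm markers, 3 had one in all lists and all 3 were lower, among them Gata6, which is also in the lateral mesoderm list, and Foxa2 (96.7 and 97.1 against 81.1 and 78.9), while the fourth, Afp, had none. Of 3 pluripotency promoters in all lists 1 was lower and 2 were higher, of 4 neuroectoderm promoters 1 was lower and 3 overlapped, and of 6 fibroblast markers 4 had a promoter peak in all lists, 1 lower and 3 overlapping, while Col3a1 and Postn had none. An open promoter is not a measure of expression, and the part of cell composition in the differences at the 10 genes was not tested.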

How the data were processed

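ATAC-seq peak lists of 2 WT and 2 CTCF-K20R libraries of day 4 EBs were analysed, grouped by genotype as the labels give it. According to the study's methods, the authors trimmed reads with Trim Galore, aligned them to mm10 with Bowtie2, removed reads of low mapping quality, duplicates and blacklisted regions, and called peaks with MACS2, 1 list per library. The deposited columns hold a score, a fold enrichment (a ratio to the local background), the −log10 p-value used for ranking, the −log10 q-value and the summit offset. Each list also holds peaks with q above 0.05, between 2.18% and 5.05% of it. Read counts and depth are unknown, so no count model or interval was possible. A shift of reads for the transposase is not given in the sources used here.

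Summits were related to TSSs of protein-coding transcripts (GENCODE basic annotation, mm10). Peaks sharing at least 1 base were merged into regions, and a region takes its strongest peak per list. Lower or higher means that both K20R percentiles lie below or above both WT percentiles, which is a description and no test. Numbers of peaks were compared by an exact two-sided permutation test. The 10 genes and all lists were chosen with earlier results of these data known. Named regions are the promoter peaks, the restricted regions and the strongest region outside 1 kb in all 4 lists per gene. Other named regions and listed genes were chosen after their values were seen. Sequences were read from the mm10 reference, and 1 promoter sequence is not reported here. The scripts (python 3.11.15, numpy 2.4.6, pandas 2.3.3, scipy 1.17.1, matplotlib 3.10.9) were tested on simulated peak lists. Alternatives covered q thresholds, list length, TSS choice, window, merging, peak numbers, scale of ranking, each library left out and a replicate block. Libraries of a genotype are replicates by the labels, and the methods state that they are biological.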

Additional observations from a re-analysis of the deposited data

How the results depend on the processing

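The log2 ratio of peak numbers within 100 kb was negative in all 11 alternatives run, from −0.43 to −0.10, the latter with equal list length, and was −0.31 to −0.43 with 1 library left out. The genotypes overlapped at −log10 q of at least 5 and 10 (exact permutation test, p = 0.667 each). The 20 WT-restricted regions became 9 at −log10 q of at least 10, 13 with equal list length, 9 with 50 kb windows, 4 where no K20R peak number was missing, and 22 to 36 with 1 library left out. The 1 K20R-restricted region became 6 at −log10 q of at least 5, 2 at 10, 8 with equal list length, 0 where no WT peak number was missing, and 3 to 8 with 1 library left out. The 22 lower regions in all 4 lists became 12 of 54 at −log10 q of at least 5 (22.2%, against 26.3% of all such regions). They became 6 of 44 at 10 (13.6%, against 19.6%), 14 with equal list length, and 28 to 37 with 1 library left out. The 14 higher ones became 9 at both q thresholds (16.7%, against 16.1%, at 5 and 20.5%, against 13.9%, at 10). They became 24 with equal list length, 25 when ranked anew, 5 with 50 kb windows, and 22 to 32 with 1 library left out. The median promoter difference of −3.46 points became −0.298 with equal list length, 0.957 by fold enrichment, −1.02 relative to the neighbourhood, and −5.26 to −1.80 with 1 library left out. Lower promoters numbered 1 and higher ones 0 with the most 5′ TSS alone (3 genes). With equal list length, 2 of 6 were lower (background 18.5%) and 2 higher (background 29.8%). In that setting Kdr overlapped (−0.963 points) and Tal1 was higher (8.45 points). With 1 library left out, 3 to 5 promoters were lower and 1 to 2 higher. Leaving out a library, a narrower window or a q threshold changes how many lists or peaks a count requires; for the other settings the cause was not tested. The median over the 73 regions, −0.108 points, ranged from −2.95 to 2.61, within the spread between replicates in all 15 alternatives, and so has no stable sign.

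The replicate numbers are shared between genotypes but nothing in the labels pairs them, and the deviations of same-numbered libraries from their genotype means correlated at 0.0532 over all regions in all 4 lists and 0.265 over those of the 10 genes. With a replicate block, the log2 ratio of peak numbers was −0.37, 55 regions were listed in WT but not in the K20R library of the same number in at least 1 pair with no pair the other way, and 21 the reverse. Since 1 pair is enough, these counts are larger by construction.

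Depth is unknown, and only listed peaks are seen, so a region absent from a list is not shown to be closed.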
